A study of Mus musculus with 2 samples.

Results

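The CD3 chains of the T-cell receptor and the proximal kinases and adaptors that act on them were followed in the pro-B cell line Ba/F3. The set comprised 10 genes: Cd3d, Cd3e, Cd3g, Cd247, Lck, Zap70, Syk, Lat, Lat2 and Lcp2. They were found by gene name among the spots of each array that are not controls, which gave 9 of the genes with 11 spots. Syk was found through its RefSeq transcript, because the array design lists it under the older symbol Sykb. In all, 12 probes with 1 spot each stood for the 10 genes, out of 39429 probes and 43020 spots for 31709 genes.

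Ba/F3 is a mouse line that depends on interleukin-3, and both cell lines compared here were kept in RPMI with foetal calf serum and recombinant mouse interleukin-3. The control was the parental line. The other line, Ba/F3 (#BEB1), is a single clone picked after repeated sorting of Ba/F3 cells for binding of an Ecrg4-Fc fusion. The sorted cells had been infected with a retroviral cDNA library from CG4 rat oligodendrocyte precursors. RNA of each line was read on 1 Agilent 1-colour whole mouse genome array, both arrays on the same slide. There are therefore no replicates, no test was possible, and a difference between clones of Ba/F3 cannot be told apart from an effect of any library insert or of the sort.

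The array of each line was not settled. Array A stands for the scanner output that came with the parental sample, and array B for the one that came with Ba/F3 (#BEB1). In the authors' table of normalised values the assignment is the opposite: over the 39429 probes, its parental column correlated with array B at a Pearson r of 0.999998 and with array A at 0.982285. Every difference below is array A minus array B. If the authors' table is right, the clone is the first term and the parental line the second, and if the scanner output is right, the order is turned. The study describes the LOX-1 gene Olr1 as higher in the clone, and Olr1 was 5.01 higher on array A on the log2 scale. That description came from the study's microarray data, so it is not an independent check of the assignment.

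The T-cell receptor binds peptide and MHC but has no signalling tail of its own. It relies on the CD3 gamma, delta and epsilon chains (Cd3g, Cd3d and Cd3e) and on the zeta chain (Cd247), whose tails carry paired tyrosines in immunoreceptor tyrosine-based activation motifs, or ITAMs. Lck phosphorylates these tyrosines, Zap70 or its relative Syk docks on them, and the docked kinase phosphorylates the membrane scaffold Lat and the adaptor Lcp2 (SLP-76), which gather phospholipase C-gamma and Tec family kinases. B cells, mast cells and other myeloid cells use Syk and the Lat relative Lat2 (NTAL) behind their own receptors.

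Of the 12 probes, 3 are shown, because their letters could encode a tyrosine motif of this signalling. All 12 were searched for both parts of an ITAM. Among the 12, tyrosine-x-asparagine was looked for in the Lat probe only, so the probes not shown may also hold codons of signalling tyrosines. The letters were read from the scanner output and run 5′ to 3′. In the Cd3d and Cd247 probes, capitals mark the codons of both tyrosine-x-x-leucine parts of an ITAM. In the Lat probe, capitals mark a tyrosine-x-asparagine, the core of a docking site for Grb2-family adaptors.
Cd3d: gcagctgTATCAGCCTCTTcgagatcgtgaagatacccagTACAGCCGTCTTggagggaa
Cd247: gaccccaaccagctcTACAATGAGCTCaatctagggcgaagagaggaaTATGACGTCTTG
Lat: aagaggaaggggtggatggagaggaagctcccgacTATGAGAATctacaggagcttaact

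The Cd3d probe lies at chr9:44794171-44794402 on the plus strand of mm9, so its 60 bases are spread over 232 bp of genome. The Cd247 probe lies at chr1:167786567-167787585 on the plus strand and is spread over 1019 bp, and the Lat probe lies at chr7:133507719-133507778 on the minus strand. Letters that could encode an ITAM were found in 68 of the 39429 probes (0.172%) when both strands and every frame were searched, and in 33 (0.0837%) on the printed strand alone. The tyrosine-x-asparagine, spelled TACNNNAAC, TACNNNAAT, TATNNNAAC or TATNNNAAT, was found in 4062 probes (10.3%) on both strands and in 2120 (5.38%) on the printed strand. A match describes letters only. Exons and UTRs of mm9 were not annotated here for the other probes.

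Signals were scaled to the 75th percentile of each array (array A, 1506; array B, 1080) and put on a log2 scale, where 0 is that percentile. A gene was called measured where a probe stood well above background on both arrays, as Feature Extraction marks it. Where a probe failed this mark on both arrays, the gene is given as at background. A signal's error is the estimate Feature Extraction gives for the spot, which covers the array and not the spread between cultures. Of the 10 genes, 7 were measured on both arrays (Cd3d, Cd3e, Lck, Syk, Lat, Lat2 and Lcp2), Cd247 stood above background on array A only, and Cd3g and Zap70 on array B only. None was dim on both arrays (0 of 10), against 15197 of all 31709 genes. Lat and Lat2 were higher on array B, Cd3d was higher on array A, and Lck, Syk, Lcp2 and Cd3e differed by less than 2-fold.

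**Figure D1:**
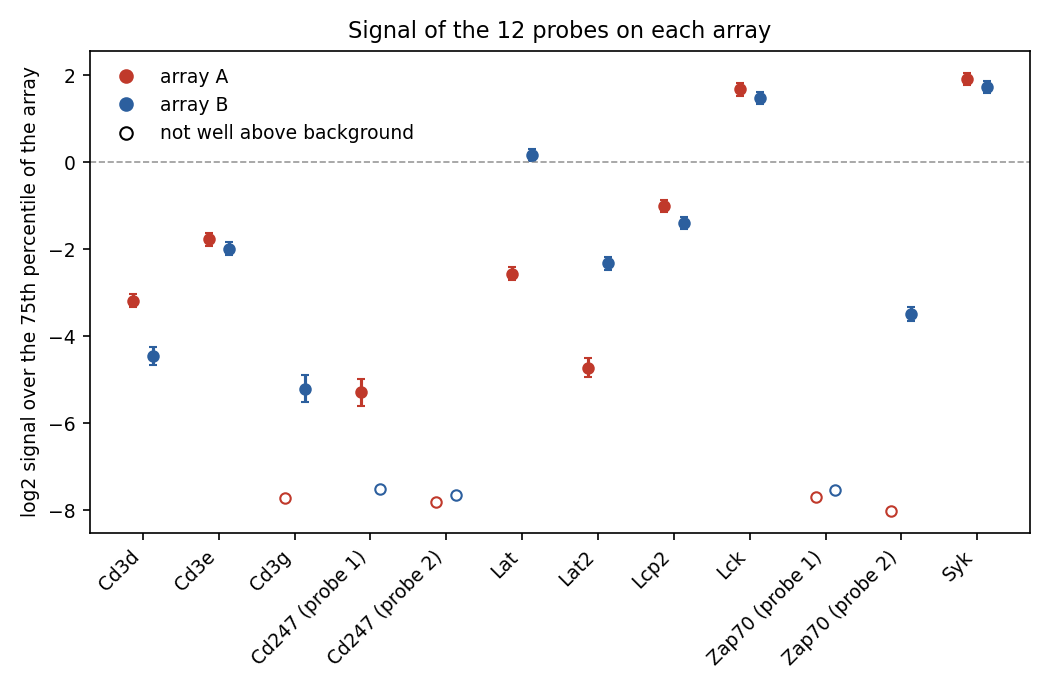
Log2 signal over each array's 75th percentile (y axis) for each of the 12 probes (x axis), array A in red and array B in blue, with bars for the Feature Extraction error and open circles where a probe was not well above background. The points of Lat lie at −2.57 and 0.16 and those of Lck at 1.67 and 1.48; levels of different probes are not comparable.

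Of the receptor chains, Cd3d and Cd3e were measured on both arrays, and only Cd3d differed by 2-fold or more. Cd3d, the delta chain, gave a signal of 165 ± 17.5 on array A and 49.1 ± 6.92 on array B. These are −3.19 and −4.46 after scaling, a difference of 1.27 ± 0.25, or 2.41-fold higher on array A. Cd3d was the 1 gene of the 7 measured to be brighter on array A by 2-fold or more, beside 3.85% of the 14815 genes measured in all. Of those 14815, 1.87% had a higher difference than Cd3d. With normexp background correction the difference was 0.60, which is under 2-fold. In RNA of a whole culture, fewer cells that express a gene and less of its RNA per cell cannot be told apart.

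Cd3e, the epsilon chain that pairs with both delta and gamma, gave 439 ± 44.6 on array A and 271 ± 27.7 on array B (probe at chr9:44806828-44806887, minus strand). The scaled levels were −1.78 and −2.00 and the difference was 0.22 ± 0.21, or 1.16-fold, about the size of its error. Cd3g, the gamma chain, was not well above background on array A, at 7.13, and gave 29.2 ± 6.33 on array B (chr9:44777868-44777927, minus strand). Its signal on array B was close to the lowest that any probe well above background had there, 22.9. Against the lowest such signal on array A, 27.6, the level of Cd3g on array B was higher by at least 1.47-fold.

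Cd247, the zeta chain with several ITAMs in its tail, was above background on array A only, and close to it. Its ITAM probe gave 38.4 ± 8.27 on array A and was not well above background on array B, at 5.89. The bound was 1.20-fold, or 0.27 on the log2 scale. This is smaller than the error of the array A signal, 0.31 on that scale, so it is not a firm lower limit. The other Cd247 probe (chr1:167800324-167800383, plus strand) was at background on both arrays, at 6.68 and 5.37. Of the 4 CD3 chains, Cd3d was thus the 1 measured to differ by 2-fold or more. Cd3g and Cd247 were near background with small bounds of opposite sign, that of Cd247 within its error.

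Cd3d, Cd3e and Cd3g are neighbours on chromosome 9, with 29.0 kb from the Cd3g to the Cd3e probe. Other genes with probes within 100 kb of the Cd3d probe were looked at after the values of the CD3 chains were known. The 5 probes of Atp5l, a subunit of the mitochondrial ATP synthase, differed by −0.16 to −0.06, and the ubiquitin ligase gene Ube4a differed by −0.47. A transcript without a gene symbol, 48.5 kb from the Cd3d probe, also differed by −0.47. The probes of Mpzl2 and Mpzl3 were at background on both arrays. Atp5l, Ube4a and this transcript lay nearer to 0 than Cd3d, as did most measured genes of the array.

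**Figure D2:**
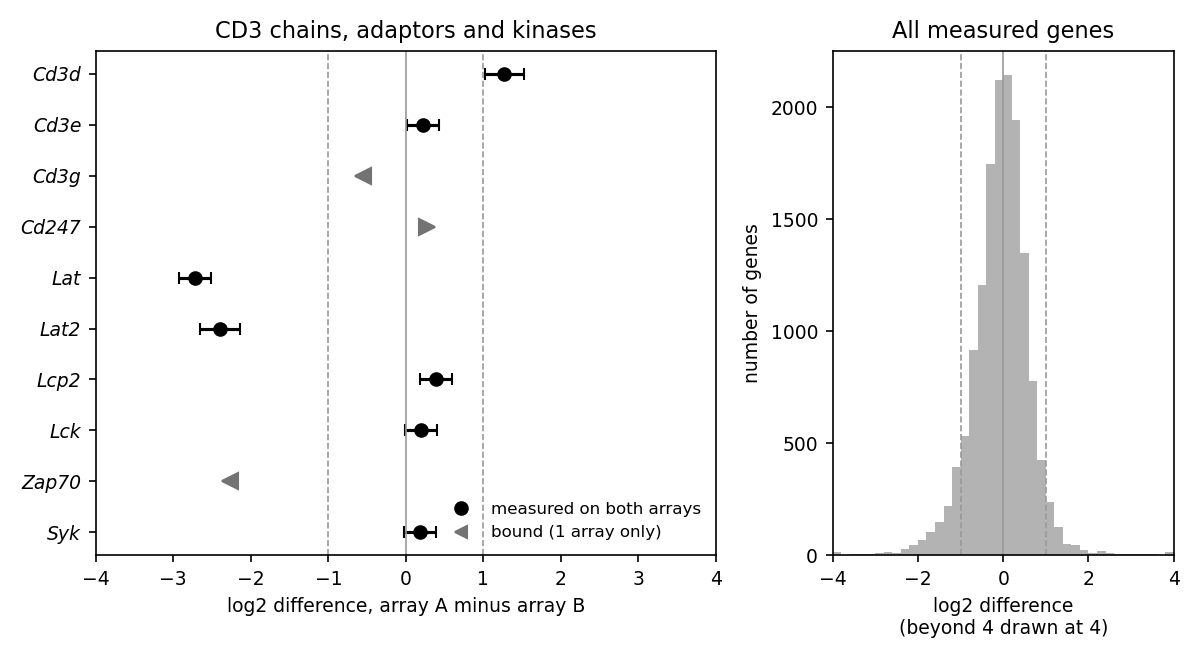
Left, log2 difference, array A minus array B (x axis), for each of the 10 genes (y axis), with points and Feature Extraction error bars for the 7 measured genes and triangles for bounds; right, number of genes (y axis) by the same difference (x axis) over the 14815 measured genes. Dashed lines mark 2-fold; Lat, Lat2 and the bound of Zap70 lie left of −1 and Cd3d lies right of 1.

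Of the kinases, Lck and Syk were bright and close to equal on both arrays. Lck, the Src family kinase that phosphorylates ITAMs in T cells, gave 4787 ± 479 on array A and 3004 ± 300 on array B (chr4:129225614-129225673, minus strand). Scaled, these are 1.67 and 1.48, a difference of 0.19 ± 0.20 or 1.14-fold. Syk, the kinase of B and mast cell receptors, gave 5659 ± 566 and 3574 ± 357 (chr13:52744088-52744147, plus strand), a difference of 0.18 ± 0.20 or 1.14-fold. Neither difference exceeded its error estimate.

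Zap70, which takes the place of Syk in T cells, was read by a pair of probes 167 bp apart that disagreed. The probe at chr1:36839542-36839601 on the plus strand gave 95.3 ± 10.6 on array B and was not well above background on array A, at 5.82. By this probe Zap70 was higher on array B by at least 4.81-fold, a bound of −2.27 on the log2 scale, which was −1.46 with normexp. The probe at chr1:36839315-36839374 was at background on both arrays, at 7.30 and 5.77. Zap70 was the 1 of the 2 genes seen on array B only (Cd3g being the other) with a bound of 2-fold or more, beside 53.0% of the 905 such genes in all.

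Among the 7 genes measured on both arrays, the scaffolds Lat and Lat2 were the farthest apart; Zap70 has only a bound and cannot be ranked with them. Lat gave 254 ± 26.1 on array A and 1204 ± 121 on array B. After scaling these are −2.57 and 0.16, a difference of −2.72 ± 0.21, or 6.60-fold higher on array B. Of all measured genes, 99.6% had a higher difference than Lat.

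Lat2, the scaffold of B cells and mast cells, gave 57.0 ± 8.28 on array A and 215 ± 22.1 on array B (chr5:135076329-135076388, minus strand). The scaled levels were −4.72 and −2.33, a difference of −2.39 ± 0.26, or 5.25-fold higher on array B, and 99.5% of measured genes had a higher difference. With normexp the difference of Lat2 was −1.57. Lat and Lat2 were the 2 of the 7 that were brighter on array B by 2-fold or more, beside 7.30% of all measured genes.

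Lcp2, the adaptor that Lat joins through Grap2, did not follow them. It gave 745 ± 74.8 on array A and 408 ± 41.1 on array B (chr11:33992133-33992192, plus strand), which are −1.01 and −1.40 after scaling. The difference was 0.39 ± 0.21, or 1.31-fold higher on array A, and 21.8% of measured genes had a higher difference. The median difference of the 7 measured genes was 0.19, beside −0.02 over all measured genes.

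**Figure D3:**
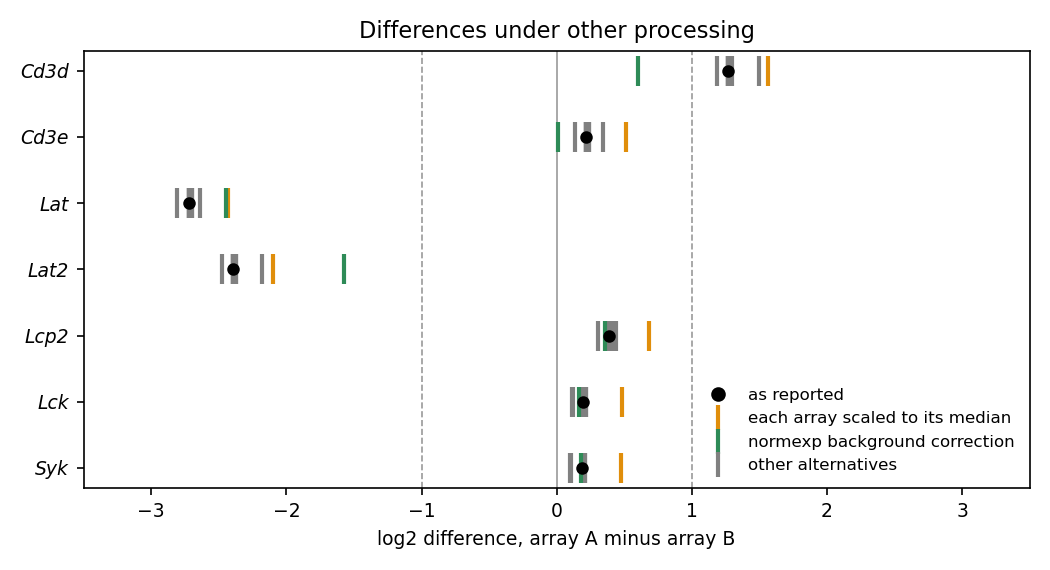
Log2 difference, array A minus array B (x axis), of the 7 measured genes (y axis) as reported (black) and under the 11 alternatives, with scaling to the median in orange and normexp in green; dashed lines mark 2-fold. Each gene keeps its sign, Cd3d ranges from 0.60 to 1.56 and Lat from −2.81 to −2.43. Alternatives that change the filter, the outlier spots or the choice of probe cannot move these genes.

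The genes around this set were described from 4 lists with 72 genes, of which 49 were measured on both arrays. A difference of 2-fold or more was found towards array A in 5 of these 49, where 3.85% of all measured genes had one, and towards array B in 6, where 7.30% had one. These shares are the background for the counts of each list below. Of the rest, 3 stood above background on array B only, each with a bound above 2-fold (53.0% of all such genes had one). At background on both arrays were 20, beside 15197 of all 31709 genes. The median difference of the 49 was −0.10. With each array scaled to its median, which raised every difference by 0.29, the counts were 9 and 3. Over all measured genes, the share of 2-fold differences that were higher on array A was then 69.1% in place of 34.5%.

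Of 17 Src family kinases and their regulators, 11 were measured, with a median difference of −0.10. By 2-fold or more, 2 were brighter on array A and 0 on array B. Ptpn22, a phosphatase that acts on Lck and Zap70, was 1.29 higher on array A on the log2 scale. Fyn, the other Src family kinase of T-cell signalling, differed by 0.76 and Lyn, its counterpart in B and mast cells, by −0.61. Ptprc (CD45), the phosphatase that keeps Src family kinases ready, differed by 0.75, and Csk, the kinase that holds them inactive, by −0.85. With median scaling Fyn was at 1.05 and Ptprc at 1.04.

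Of 24 adaptors around Lat and Lcp2, 17 were measured, with a median difference of −0.34. By 2-fold or more, 0 were brighter on array A and 4 on array B. Grap2 (Gads), which links Lat to Lcp2, was above background on array B only and at least 4.50-fold higher there, a log2 bound of −2.17 that was −1.39 with normexp. Grb2, which binds the tyrosine-x-asparagine sites of Lat, differed by −0.34. The 4 genes higher on array B were Sh2d1a (SAP), with a difference of −1.60, Dok1, an inhibitory docking protein, with −1.16, Sla2, which dampens receptor signalling, with −1.07, and Sh3bp2 with −1.04. Each of the 4 fell short of 2-fold under normexp or median scaling: Sh2d1a was at −0.88 and Sla2 at −0.93 with normexp, and Dok1 was at −0.86 and Sh3bp2 at −0.75 with median scaling. Gab2 differed by −0.16, and by 0.13 with median scaling, and Blnk, the B-cell counterpart of Lcp2, was at background on both arrays.

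Of 23 effectors downstream of Lat and Lcp2, 16 were measured and their median difference was −0.02. By 2-fold or more, 1 was brighter on array A and 1, Txk, on array B. Txk, a Tec family kinase of T cells, had scaled levels of −3.86 on array A and −0.35 on array B, a difference of −3.52, or −2.84 with normexp. Its levels lay farther apart than those of Lat. Btk, the Tec kinase of B and mast cells, differed by 0.09 and Vav1 by 0.17. Of the phospholipases, Plcg2 of B and myeloid cells differed by 0.37, while Plcg1, the partner of Lat in T cells, was above background on array B only and at least 3.73-fold higher there, a log2 bound of −1.90 that was −1.07 with normexp.

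Of 8 other ITAM-bearing and receptor signalling chains, 5 were measured, with a median difference of 0.32. By 2-fold or more, 2 were brighter on array A and 1 on array B. Fcgr3, a low-affinity IgG receptor, was 2.34 higher on array A, and Fcer1g, the ITAM-bearing gamma chain it shares with the IgE receptor, was 1.48 higher, or 0.81 with normexp. The IgE-binding chain Fcer1a went the other way: it was above background on array B only and at least 45.7-fold higher there. This is a log2 bound of −5.51, which was −3.91 with normexp. The looser filter gave −7.53, taken against its own background-level signal on array A, which is not a lower limit. Cd79b, an ITAM chain of the B-cell receptor, was brighter on array B, with a difference of −2.30, and its partner Cd79a was at background on both arrays. The remaining measured chains, Tyrobp and Hcst, differed by 0.32 and −0.42. Chains of this list thus differed by 2-fold or more in both directions, and others did not. Of the CD3 chains, only Cd3d and Cd3e were measured on both arrays, too few to set against this list.

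**Figure D4:**
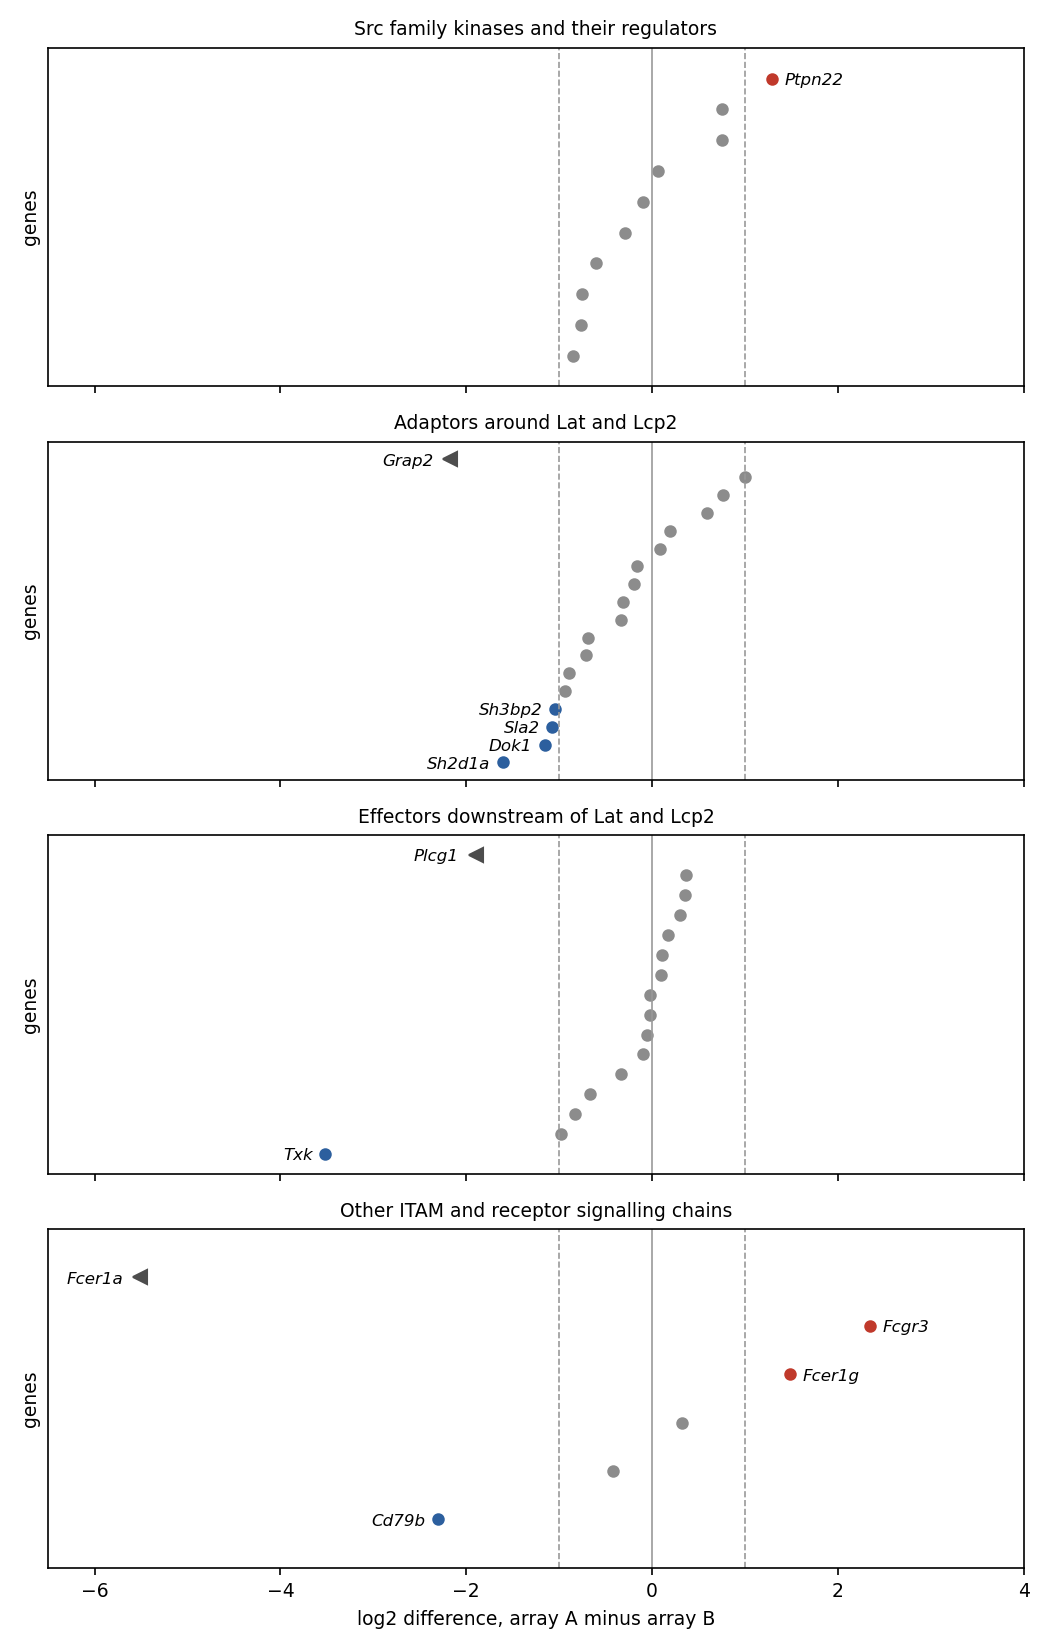
Log2 difference, array A minus array B (x axis), of genes of the 4 lists that are reported here, 1 panel a list and 1 row a gene. Circles are genes measured on both arrays, red for 2-fold or more towards array A and blue towards array B, triangles are bounds for genes above background on array B only, and dashed lines mark 2-fold; Txk lies at −3.52 among the effectors.

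Markers of T cells were mostly at background beside these genes. Of 19 T-lineage markers, 14 were at background on both arrays, and these included the defining markers Cd2, Cd8a, Cd28, Thy1 and Bcl11b. Beside this count and that of the receptor segments below, 15197 of all 31709 genes were at background on both arrays. Cd4 was measured at 1 of its 2 probes with scaled levels of −0.53 and −0.55, a difference of 0.03 that was −0.06 with scaling over the probes measured on both arrays. Cd5 was above background on array B only and at least 2.82-fold higher there, a log2 bound of −1.49 that fell short of 2-fold with normexp, at −0.95. Cd6 was above background on array A only and at least 1.35-fold higher there. The interleukin-2 receptor chains Il2ra and Il2rb were 2.91 and 0.93 higher on array A. Of 46 T-cell receptor segment names on the array, 39 were at background on both arrays, 3 were above it on array B only, and of the 4 measured on both Trgv1 differed by −2.97 and the others by −0.17 to 0.00.

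The labelled cell type was checked in the same way. Of 14 pro-B markers, 10 were at background on both arrays, Pax5 and Ebf1 among them, 1 had no probe, and 3 were measured: Tcf3 differed by −0.62, Vpreb1, a surrogate light chain gene, by −1.39 (−0.94 with normexp) and Cd79b by −2.30. Of 11 mast cell and basophil markers, 6 were at background on both arrays, Kit and Ms4a2 among them. Beside these counts, 15197 of all 31709 genes were at background on both arrays. The granule protease genes Cpa3 and Cma1 differed by −5.44 and −2.95, the transcription factor Gata2 by −1.40 and the histamine-forming enzyme Hdc by 1.67. Of the 11, 3 measured genes were thus brighter on array B by 2-fold or more, as Lat and Lat2 were, 1 was brighter on array A, and Fcer1a was above background on array B only. Over all measured genes, 7.30% were brighter on array B by 2-fold or more and 3.85% on array A. The part of these lineage genes in the differences of the CD3 and Lat genes was not tested.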

How the data were processed

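The parental line and the clone Ba/F3 (#BEB1) were each read on 1 Agilent 1-colour array. The scanner files that the authors deposited hold spot intensity from Agilent Feature Extraction 9.5.1.1 (background subtracted, trends removed, surrogate values for spots not above background). The deposited value table holds log2 values, floored at 1, scaled to the 75th percentile of each array, with column medians of −5.21 (parental) and −5.45 (#BEB1), which is not centred per gene; it was used to check the assignment and as an alternative.

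Here the deposited intensity of the 43020 spots that are not controls was floored at 1, divided by the 75th percentile of its array and log2-transformed, and spots of a probe were averaged. A gene's value is the mean of those of its probes that were well above background on each array. Array A had 19480 such probes, array B had 19659, and 0 spots were saturated. A gene above background on 1 array only was given a bound against the dimmest probe that passed this mark on the other array, or against its own signal there if higher. Among the probes printed 10 times, those well above background at every spot had a median SD between spots of 0.06 (array A) or 0.05 (array B). The number of arrays limits the precision.

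Probes were named from RefSeq genes of the GRCm38.p6 assembly, from which no coordinates were taken (26055 by accession, 3195 by symbol, 930 by an older symbol, 9249 as in the files), and coordinates are those of the scanner output in mm9. All genes of the set were named. Of the 4 pathway lists, genes at least 2-fold apart or with such a bound were named, with direct partners, and of the marker lists the defining markers and up to 4 more. Some genes that this rule takes are counted in their lists but not reported by name here. The genes, lists and rules were chosen with earlier results of these data known. Alternatives were 3 other scalings, normexp with an offset of 50, a looser filter and none, outlier spots left out, the brightest probe or the median over probes, and the authors' table; the 75th percentile over distinct probes was added after the data were seen. Steps were tested on simulated arrays. Python 3.11.15, numpy 2.4.6, pandas 2.3.3, matplotlib 3.10.9, R 4.3.3 and limma 3.58.1 were used.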

Additional observations from a re-analysis of the deposited data

How the results depend on the processing

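Over the 11 alternatives, the 7 genes measured on both arrays kept the sign of their differences: Cd3e ranged from 0.01 to 0.51, Lcp2 from 0.31 to 0.68, Lck from 0.11 to 0.48, Syk from 0.10 to 0.48, and Lat2 from −2.48 to −1.57. Each of the 7 has 1 probe, well above background on both arrays and without outlier marks. Both filter settings, outlier spots left out, the brightest probe and the median over probes therefore could not change their values. The authors' table and the percentile over distinct probes shifted differences by only 0.02. Only the other scalings and normexp could thus test the sign. Among all 10 genes, the count brighter on array A by 2-fold or more, 1 as reported, was 0 with normexp, where Cd3d fell short. It was 2 with no filter on dim probes, which added Cd247. The count on array B, 2 as reported, was 4 with no filter, which added Cd3g and Zap70. Leaving out the filter admits probes at background. Of the pathway genes, 5 were brighter on array A to this degree as reported and 9 with median scaling. On array B there were 6 as reported, 3 with median scaling, 3 with normexp and 10 with no filter. Bounds of dim genes moved most: Zap70 lay between −4.51 with the looser filter and −1.46 with normexp, Cd3g reached −2.51 with the looser filter, and Cd247 reached 2.22 with it and had no bound with normexp. The values with the looser filter were taken against the surrogate signal of the same probe on the dim array. They are therefore not lower limits of a difference. No replicate could be left out, and no paired analysis was possible because there was 1 array per cell line. The cause of these shifts was not tested, beyond what each alternative does by construction.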

Other observations

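Of 9 NK-lineage markers, 7 were at background on both arrays, beside 15197 of all 31709 genes. Nkg7, a granule membrane protein of cytotoxic cells, differed by −2.30, with −3.18 and −1.42 at its 2 probes, and Prf1 (perforin) by 0.48. Of the interleukin-3 receptor, on which growth of the line depends, the alpha chain Il3ra differed by 0.40, which is under 2-fold. The shared beta chain Csf2rb differed by −1.86, with −2.17 and −1.54 at its 2 probes. The mouse-specific beta chain Csf2rb2 differed by −1.60, with −2.09 and −1.11 at its 2 probes.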
